A study of Mus musculus with 6 samples.

Results

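The myogenic regulatory factors Myf5, Myod1, Myog and Myf6 and the paired-box genes Pax3 and Pax7 were followed in the mandibular arch of mouse embryos. These 6 genes were chosen by name, and every probe set that the platform annotation assigns to exactly 1 of them was taken: 10 of the 45037 non-control probe sets, for 6 of the 18193 genes represented on the array. Expression was measured on 6 Affymetrix mouse whole-genome arrays of C57BL/6 embryos at E10.5, 3 labelled wild type (Tbx1+/+) and 3 labelled null (Tbx1-/-) for the T-box transcription factor Tbx1. Arches of 3 embryos were pooled by genotype, and the sources do not settle whether each array carried its own pool. A p-value here therefore reflects no more than the scatter of these arrays, which may be technical in part. Xist and placental markers, given below, differed widely among the labelled-null arrays, so those 3 did not all carry the same RNA. The values do not settle this for the wild-type arrays. No allele, promoter or Cre driver is named in the labels. In bulk tissue, fewer cells of a type and less RNA per cell cannot be told apart.

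The 4 myogenic factors are basic helix-loop-helix proteins that bind E-boxes as dimers with E-proteins. Myf5 and Myod1 commit cells to skeletal muscle, Myog drives their terminal differentiation, and Myf6 (MRF4) acts early in the trunk and again in maturing fibres. In the trunk, Pax3 lies upstream of the myogenic factors. The jaw muscles arise from the mesodermal core of the first arch, where regulators such as Tbx1, Tcf21 and Msc act upstream of them instead. Pax7 marks muscle progenitors that become satellite cells, and both Pax genes are also used by neural crest and neural tube.

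The promoters of Myf5 and Myog are shown because these are the earliest and the later acting of the 4 factors and because both stood lower on the labelled-null arrays. RefSeq (GRCm38.p6) promoter windows matched 3 of the 6 genes, Myf5, Myog and Pax7, and the 250 bases before the annotated start were searched on both strands for 6 patterns. The patterns were the E-box CANNTG, the E-box CAGCTG, the T-box half-site GGTGTG, the MEF3 site TCAGGTT, the homeodomain core TAATTA and a loose form of the MEF2 site, CTA and TAG with 4 bases of any kind between them. The sequences run 5′ to 3′ in the direction of the gene, and capitals mark the matches.
Myf5, chr10:107486135-107486384, minus strand: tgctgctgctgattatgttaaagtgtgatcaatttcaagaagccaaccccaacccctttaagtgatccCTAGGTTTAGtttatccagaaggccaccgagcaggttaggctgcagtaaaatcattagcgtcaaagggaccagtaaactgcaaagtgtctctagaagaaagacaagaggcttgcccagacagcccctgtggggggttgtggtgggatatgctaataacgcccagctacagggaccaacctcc
Myog, chr1:134289754-134290003, plus strand: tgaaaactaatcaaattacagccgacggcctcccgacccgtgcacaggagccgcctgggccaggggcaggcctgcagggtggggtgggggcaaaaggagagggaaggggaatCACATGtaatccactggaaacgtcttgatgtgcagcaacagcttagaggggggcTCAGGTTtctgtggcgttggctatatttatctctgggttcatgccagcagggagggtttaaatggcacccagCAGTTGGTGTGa

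The Myog window held 2 E-boxes, CACATG beginning 138 bases and CAGTTG beginning 12 bases before the start. It also held 1 MEF3 match, beginning 84 bases before the start, and 1 T-box half-site, which begins 7 bases before the start and shares its first base with the nearer E-box. Of 32851 windows of the same length, 66.2% held CANNTG, 16.3% held GGTGTG and 3.49% held TCAGGTT. The Myf5 window held only the loose MEF2 form, beginning 182 bases before the start and found in 3.20% of windows. The bases in the middle of that match are not all A or T, as those of the MEF2 site are, so it is a match to the loose form alone. The Myog window held no match to the loose form. Its stretch ctatatttat begins with CTA and is all A or T after the first base. It ends in TAT, not TAG, and so was not counted. Absence of a match is therefore not absence of a site. The Pax7 window held none of the 6 patterns. CAGCTG and TAATTA (4.84% of windows) were in none of the 3. These are matches of letters, and no binding was measured.

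Before the genotypes are compared, some facts on the arrays bear on every value. Values are log2 GCRMA expression, and array medians lay between 6.08 and 6.15. Precision is limited by having 3 arrays a genotype. Labelled-null replicate 3 stood apart: 249 genes lay more than 1 (log2) above the mean of the other arrays, against 6 to 32 on each other array. Summed on the linear scale, 12 measured markers of placenta and trophoblast reached 29098 there, against 469 and 483 on the other labelled-null arrays and 404 to 455 on the wild-type arrays. Xist read 5.60 on labelled-null replicate 2 and 10.43 to 11.55 on the other 5 arrays. The only Tbx1 probe set was not lower on the labelled-null arrays (7.59, 7.50 and 7.30, against 6.93, 7.31 and 6.92 on the wild-type arrays). Its difference was 0.41 (SE 0.14, adjusted p = 1.00 in limma), and since no source used here says which part of the gene was disrupted, it checks no label. Markers of mandibular arch mesenchyme were high: all 15 exceeded 7 on every array and 0 of 15 passed in limma (0 at an unadjusted p under 0.05). No other tissue was compared, so these values do not settle the tissue label.

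Myf5 fell, and it was the only one of the 6 genes to pass the threshold. Myf5 read 7.58, 7.75 and 7.51 on wild-type replicates 1, 2 and 3 and 4.71, 5.91 and 5.22 on labelled-null replicates 1, 2 and 3. Every labelled-null array lay below every wild-type array, and the labelled-null arrays were spread more widely (SD 0.60 against 0.13, n = 3 each). The means of 7.61 and 5.28 differ 5.04-fold (log2 change -2.33, SE 0.27, 95% interval -2.94 to -1.72), the second largest fall among 16073 genes tested. Its adjusted p was 0.0492 in limma with Benjamini-Hochberg adjustment over all genes, and 0.0320 with the replicate number as a block, under which 0.0373% of all genes were called lower.

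The call sits close to the threshold of 0.05. 1 of the 6 genes was called lower and 0 higher, against 0.0249% of all genes called lower and 0.0124% higher. Unadjusted, 4 of the 6 were lower and 0 higher at p under 0.05 in limma, against 1.2% and 1.47% of all genes. When each of 37515 probe sets was tested by itself the adjusted p of Myf5 was 0.0899 in limma. Thus 0 of the 8 member probe sets tested passed, against 0.00533% of all probe sets called lower. Unadjusted, 4 of the 8 were lower at p under 0.05 in limma, against 398 of all 37515 probe sets. With the block the adjusted p of the Myf5 probe set was 0.0248. Leaving out wild-type replicate 1, 2 or 3 gave adjusted p = 0.461, 0.406 and 0.233 in limma, with changes of -2.35, -2.26 and -2.38. Leaving out labelled-null replicate 3, the array rich in placental transcripts, gave a change of -2.30 and an adjusted p of 0.0236.

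**Figure D1:**
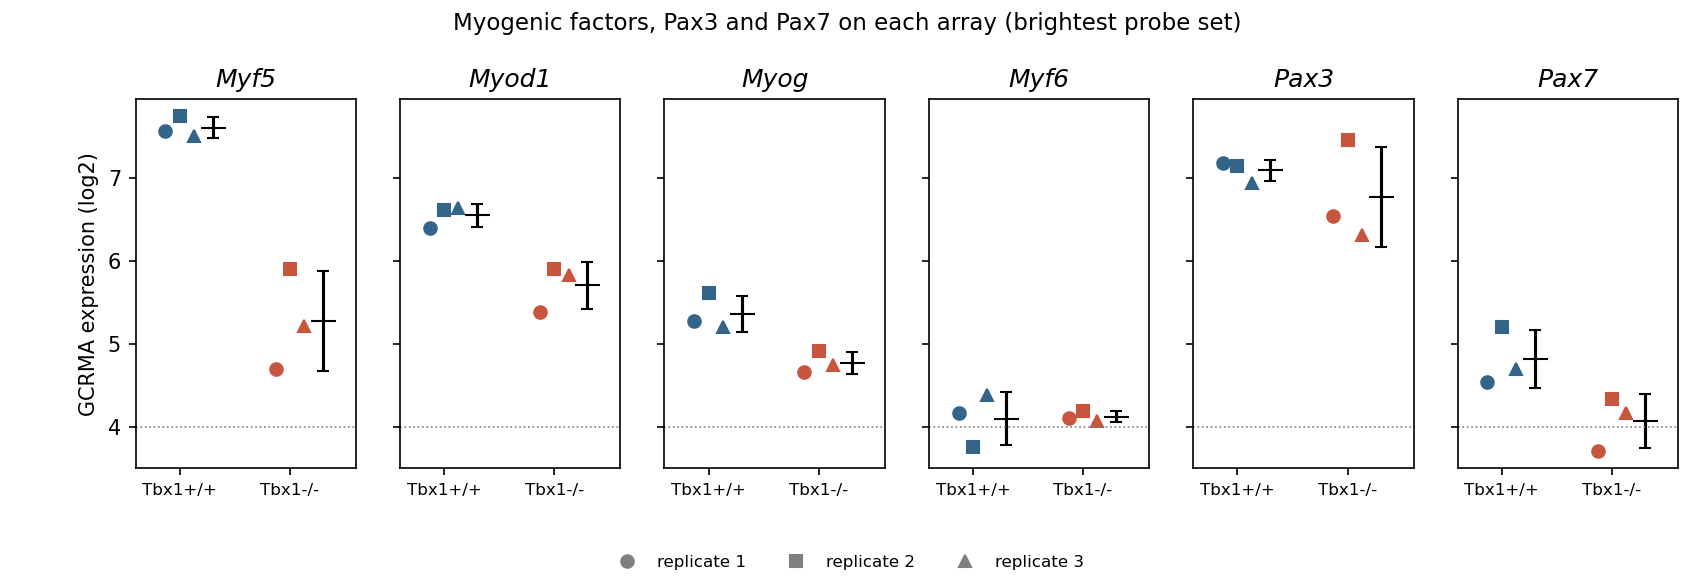
GCRMA expression (log2) of the 6 genes on each array, brightest probe set, with wild type in blue and labelled null in red; marker shapes give the replicate number, black bars the mean and SD of 3 arrays, and the dotted line the level of 4 used as a filter. Myf5, Myod1, Myog and Pax7 do not overlap between genotypes, Pax3 does, and Myf6 lies around the filter level on every array.

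Myod1, the other determination factor, was lower by less and did not pass. Its brighter probe set read 6.40, 6.62 and 6.65 on the wild-type arrays and 5.39, 5.91 and 5.84 on the labelled-null arrays. The genotypes did not overlap, and labelled-null replicate 1 was lowest, as for Myf5. The difference of -0.84 (SE 0.16, 95% interval -1.21 to -0.47), or 1.80-fold, gave an adjusted p of 0.387 in limma. The second Myod1 probe set read 2.30 to 2.61 on all 6 arrays, under the filter level of 4, and was not tested.

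Myog, which acts after the determination factors, read 5.28, 5.61 and 5.20 on the wild-type arrays and 4.66, 4.92 and 4.75 on the labelled-null arrays. Again every labelled-null array was below every wild-type array. Its difference was -0.59 (SE 0.14, 95% interval -0.92 to -0.26), or 1.5-fold, with an adjusted p of 0.959 in limma.

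Myf6 gave no difference that could be read. It read 4.17, 3.76 and 4.38 on the wild-type arrays and 4.11, 4.20 and 4.07 on the labelled-null arrays, and the genotypes overlapped. The difference was 0.02 (SE 0.16, 95% interval -0.36 to 0.40, adjusted p = 1.00 in limma) at a level where transcript cannot be told from background. Its sign turned with values under 4 raised to 4 and with either replicate 2 left out. RefSeq places Myf6 beside Myf5 on chromosome 10 with 0 listed genes between them, so the most lowered of the 4 factors and the one at filter level are neighbours.

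Pax7 was lower on its brighter probe set and did not pass. That set read 4.55, 5.21 and 4.70 on the wild-type arrays and 3.71, 4.34 and 4.17 on the labelled-null arrays. The genotypes did not overlap, but the highest labelled-null array and the lowest wild-type array were 4.34 and 4.55. The difference was -0.75 (SE 0.22, 95% interval -1.24 to -0.25, adjusted p = 1.00 in limma; 0.305 with the replicate block). The other Pax7 set read 3.67 to 4.13, exceeded 4 on 2 arrays and was not tested; its means were 3.89 on both genotypes.

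Pax3 overlapped between the genotypes on each of its 3 probe sets. The brightest read 7.19, 7.15 and 6.95 on the wild-type arrays and 6.54, 7.46 and 6.32 on the labelled-null arrays. Labelled-null replicate 2 was thus the highest of the 6 arrays and the other labelled-null arrays the lowest. The difference was -0.32 (SE 0.27, 95% interval -0.93 to 0.29, adjusted p = 1.00 in limma), and it was -0.66 without labelled-null replicate 2 (adjusted p = 0.781) and -0.09 without labelled-null replicate 3. The other sets differed by -0.10 (SE 0.17) and -0.07 (SE 0.19).

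**Figure D2:**
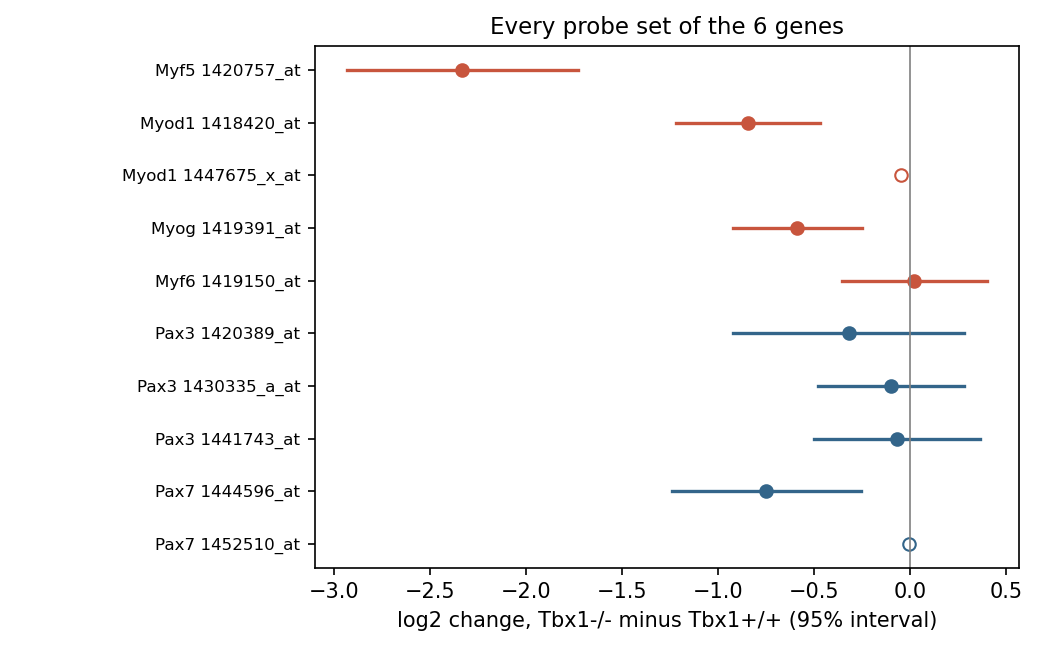
Log2 change (Tbx1-/- minus Tbx1+/+) of each of the 10 probe sets, with the 95% interval of the limma fit over all probe sets; filled points passed the filter on low values, open points did not and have no interval, myogenic factors are red and Pax genes blue. Intervals of the Myf5 set, the brighter Myod1 set, the Myog set and the brighter Pax7 set lie below 0, without adjustment for the number of probe sets tested.

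Taken by counts, 4 of the 6 genes (Myf5, Myod1, Myog and Pax7) had all labelled-null arrays below all wild-type arrays, and 3.25% of all genes tested did so. None of the 6 had all labelled-null arrays above all wild-type arrays, as 3.17% of all genes did. The same 4 genes were lower in all 3 pairs of arrays with the same replicate number. The lack of overlap makes this certain, so it adds no support. The pairwise differences of Myf5 were -2.87, -1.84 and -2.28, and those of Myod1 -1.01, -0.71 and -0.81. The median log2 change of the 6 genes was -0.67, against -0.01 over all genes. All 6 genes passed the filter, with Myf6 and Pax7 over 4 on 5 arrays and the others on all 6.

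The order of loss was compared within arrays, by taking the difference between 2 genes on each array, over all 15 pairs of the 6 genes. A two-sided exact permutation test of 3 arrays against 3 cannot go below p = 0.10, and the smallest value adjusted over the pairs was 0.188, so no pair can pass. Myf6 was left out of the reading, since at its level transcript cannot be told from background. Of the 8 pairs without overlap between the genotypes, 4 were pairs with Myf6. Myf5 was lowered more than each of the other 4 genes, with no overlap between the genotypes. The gap to Myod1 was -1.49 (SE 0.24), that to Pax7 -1.58 (SE 0.23), that to Myog -1.74 (SE 0.28) and that to Pax3 -2.01 (SE 0.22), each with exact permutation p = 0.10 and adjusted p = 0.188.

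Below Myf5 the order was not resolved. Myod1, Pax7, Myog and Pax3 followed in that order, and in all 6 pairs among them the genotypes overlapped. Myod1 was lowered more than Myog by 0.26 on average (difference -0.26, SE 0.17, exact permutation p = 0.20) and more than Pax7 by 0.10 (difference -0.10, SE 0.17, exact permutation p = 0.50). With the mean of probe sets, which takes in the dim second sets of Myod1 and Pax7, the difference of Myod1 from Myog turned to 0.14, and Myog was lowered more than Pax7 (-0.21) and Pax3 (-0.43) without overlap. Without labelled-null replicate 3, Myod1 was lowered more than Myog (-0.33) and Pax3 (-0.82), and Pax7 more than Pax3 (difference of Pax3 from Pax7 0.70), without overlap. Leaving out wild-type replicate 2 separated Myod1 from Myog (-0.35) and from Pax7 (-0.26). Leaving out wild-type replicate 1 separated Myog from Pax7 (0.25). With any other array left out all of these pairs overlapped. Fewer arrays separate more easily. In all 15 alternative settings Myf5 was the most lowered of the genes tested, while the full order of the 6 genes was kept in 10. With a filter at 5 only 4 of them were tested, and these kept their order.

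**Figure D3:**
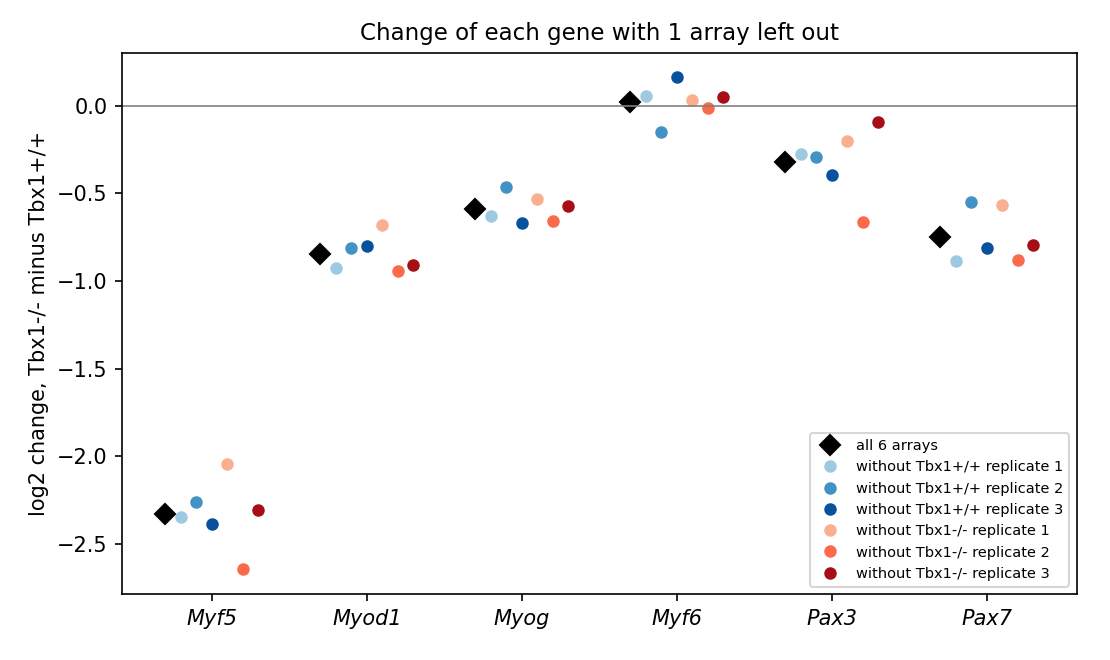
Log2 change (Tbx1-/- minus Tbx1+/+) of each gene with all 6 arrays (black diamonds) and with 1 array left out (blue, a wild-type array; red, a labelled-null array). Myf5 stays between -2.65 and -2.05, apart from the other genes, while Myod1, Myog and Pax7 lie close together and Pax3 runs from -0.66 to -0.09.

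Among the regulators that lie upstream of the myogenic factors in head muscle, 14 of 16 listed genes were tested, 1 fell and 0 rose in limma (0 fell without wild-type replicate 1, 2 or 3, and 2 without labelled-null replicate 3). The gene that fell was Tcf21 (capsulin), which belongs to the bHLH class and marks the arch core. It read 7.10, 7.01 and 7.33 on the wild-type arrays and 5.76, 5.63 and 5.45 on the labelled-null arrays. Its change of -1.53 (SE 0.13) had an adjusted p of 0.0185 in limma. With the mean of its probe sets the change was -0.67 (adjusted p = 0.366 in limma). The other set is dim, and its mean was not lower on the labelled-null arrays. Without wild-type replicate 1, 2 or 3 the change of the brighter set kept its size, at -1.56, -1.60 and -1.44. The adjusted p was then 0.203, 0.113 and 0.138 in limma. Unlike Myf5, Tcf21 was lowest on labelled-null replicate 3.

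Lhx2, a LIM homeodomain factor, differed by -1.71 (SE 0.23, adjusted p = 0.113 in limma). It passed without labelled-null replicate 3 (-1.99, adjusted p = 0.00347 in limma) and with array weights (-1.92, adjusted p = 0.0362 in limma). Msc, or musculin, a repressor of the same protein class as Tcf21, differed by -0.81 (SE 0.16, adjusted p = 0.426 in limma). Both were least lowered on labelled-null replicate 3, at 5.04 and 5.17. Of the other regulators Tbx1 had the largest difference, given above, and the rest lay between -0.22 and 0.12: Isl1 differed by 0.12 (SE 0.13), Six4 by 0.05 (SE 0.10) and Eya1, a transcriptional cofactor of head development, by -0.10 (SE 0.14). The median of the list was -0.06, and 8 of the 14 had lower means. Tcf21, Lhx2 and Msc were lower without overlap between the genotypes, and Ebf3 was higher without overlap, by 0.07 (SE 0.05).

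Partners and inhibitors of the myogenic factors were all 19 tested, and 0 passed in limma (unadjusted, 0 were lower and 2 higher at p under 0.05). The E-proteins Tcf3, Tcf4 and Tcf12, which dimerize with the myogenic factors, differed by -0.01 (SE 0.11), 0.04 (SE 0.07) and -0.03 (SE 0.09). Mef2c, a MADS-box factor that acts with them, differed by 0.01 (SE 0.12). Snai1, a zinc-finger repressor, differed by 0.39 (SE 0.10) and Id1, which sequesters E-proteins, by 0.32 (SE 0.14), both with an adjusted p of 1.00 in limma. The list had a median of 0.03.

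**Figure D4:**
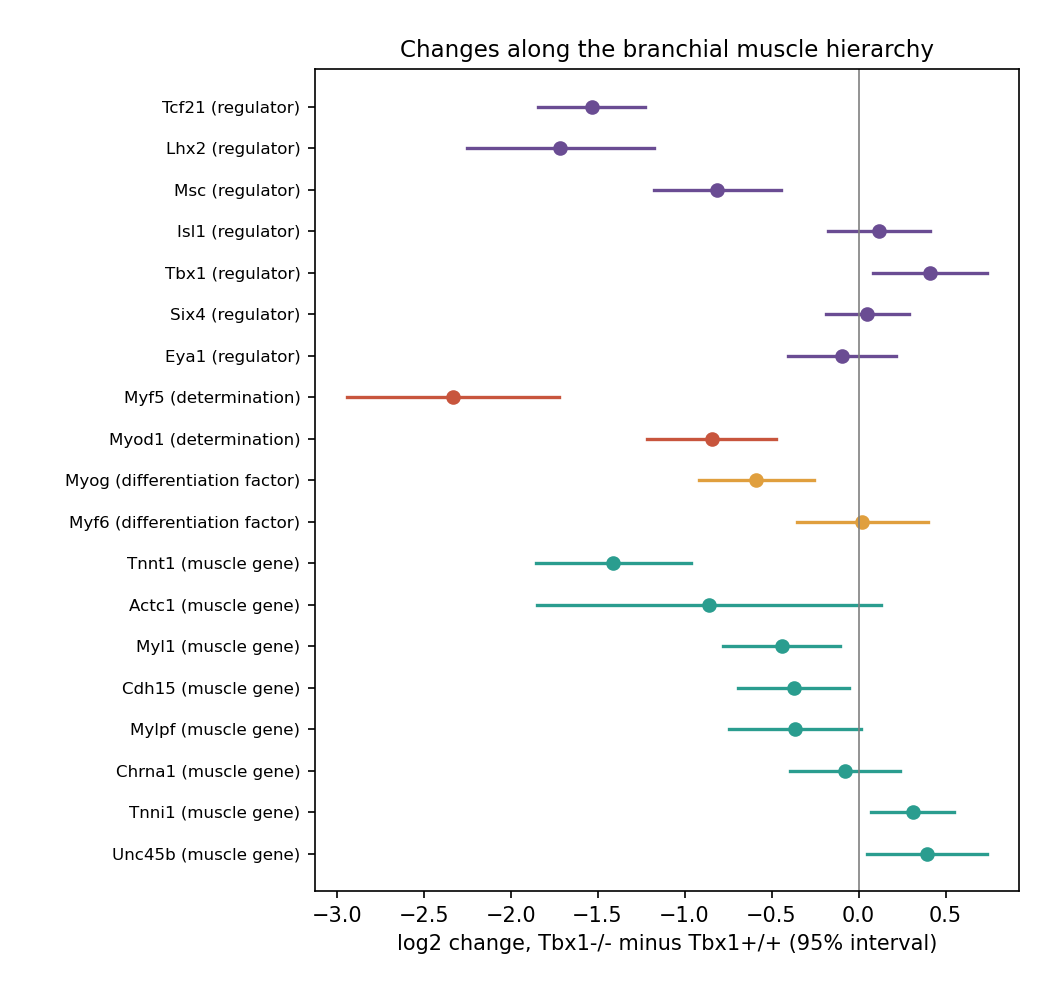
Log2 change (Tbx1-/- minus Tbx1+/+) with the 95% interval of the limma fit over all genes, for upstream regulators (purple), determination factors (red), differentiation factors (orange) and muscle genes (green). The regulators and muscle genes shown are a chosen part of the 14 and 28 tested, so their spread is not that of the lists. Tcf21 and Myf5 passed after adjustment over all genes; the other genes did not. Both determination factors lie below 0, while the regulators and the muscle genes include values near or above 0.

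Downstream, 28 of 32 genes of muscle differentiation were tested, and 0 passed in limma (unadjusted, 3 were lower and 2 higher at p under 0.05). The troponin T gene of slow fibres, Tnnt1, had the smallest p, reading 8.60, 9.08 and 8.42 on the wild-type arrays and 7.01, 7.50 and 7.37 on the labelled-null arrays. Its change was -1.41 (SE 0.19), with an adjusted p of 0.113 in limma and 0.0362 with the replicate block, the only gene of the list to pass under the block. Among the labelled-null arrays replicate 1 was lowest and replicate 2 highest, as for Myf5 and Myod1.

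Other muscle genes differed by less or in the other direction. Myl1, a myosin light chain, differed by -0.44 (SE 0.15) and Cdh15, the muscle cadherin, by -0.37 (SE 0.14). Actc1, cardiac actin, which embryonic skeletal muscle also uses, differed by -0.86 (SE 0.43) with overlapping genotypes. Array weights brought that to -0.37. Leaving out wild-type replicate 2, labelled-null replicate 1 or labelled-null replicate 3 brought it to -0.44, -0.80 and -0.52. Leaving out wild-type replicate 1, wild-type replicate 3 or labelled-null replicate 2 brought it to -1.08, -1.07 and -1.26. With the replicate block the change of Actc1 had an SE of 0.14 and an adjusted p of 0.273 in limma. Tnni1, a troponin I, differed by 0.31 (SE 0.10) and Unc45b, a myosin chaperone, by 0.39 (SE 0.15). Chrna1, an acetylcholine receptor subunit, differed by -0.08 (SE 0.14) and Mylpf, a fast-muscle myosin light chain, by -0.37 (SE 0.17; -0.19 without wild-type replicate 2). Of the list, 21 genes had lower and 7 higher means, with a median of -0.09. The fusion genes Mymk and Mymx did not pass the filter.

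The genes whose values were most like those of a member over the 6 arrays were taken by Pearson correlation among genes with a range of at least 1 (log2); since genotype enters these correlations they carry no test. Cobl, an actin nucleator, and Tnnt1 were each among the 5 likest genes of Myf5, Myod1 and Myog. For Myf5 they gave r = 0.98 and r = 0.97, followed by Myod1 (r = 0.97), Pcdh8, a protocadherin (r = 0.96), and Lrrn1, a leucine-rich repeat membrane protein (r = 0.94). Of these, Lrrn1 fell by 1.55 on the log2 scale (adjusted p = 0.0034 in limma). Cobl read 6.91, 7.19 and 6.81 on the wild-type arrays and 5.79, 6.34 and 5.92 on the labelled-null arrays, in each genotype highest on replicate 2. Its change of -0.95 did not pass (adjusted p = 0.340 in limma). Pcdh8 was the likest gene of Myod1 (r = 0.99), with 3.04 on labelled-null replicate 1 and 4.65 or more on each other array. Gbx2, a homeobox gene, was the remaining gene of the 5 for Myod1 (r = 0.93).

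Myog was likest to Tnnt1 (r = 0.99), Cobl (r = 0.98) and Pax7 (r = 0.96). Pax7 itself was likest to Afp (r = 0.99) and Ttr (r = 0.98), which encode secretory proteins of yolk sac endoderm and fetal liver. Afp read 7.53, 8.93 and 7.80 on the wild-type arrays and 5.64, 7.35 and 6.85 on the labelled-null arrays, so that it was highest on replicate 2 and lowest on replicate 1 of each genotype, as was Pax7. The part of other tissue in the Pax7 values was not tested. The likest genes of Myf6 reached r = 0.88 (Tmem91) and 0.77 or less for the other 4.

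Pax3 was likest to 5830408C22Rik (r = 0.96) and Nefl (r = 0.95), and then to Tbx18, a T-box factor of somites and limb (r = 0.89), Lum, a proteoglycan of connective tissue (r = 0.87), and Meox2, a homeobox factor of somites (r = 0.87). Beside it, Lbx1, a homeobox factor of migrating limb and tongue muscle precursors, read 5.28, 6.18 and 5.40 on the wild-type arrays and 4.65, 5.71 and 5.03 on the labelled-null arrays. Meox2 read 5.50, 6.06 and 4.50 on the wild-type arrays and 4.84, 5.91 and 3.79 on the labelled-null arrays. Both were highest on replicate 2 of each genotype, and so was Tbx18, at 5.78 and 5.85. Pax3 was highest on replicate 2 of the labelled-null arrays and on replicate 1 of the wild-type arrays.

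**Figure D5:**
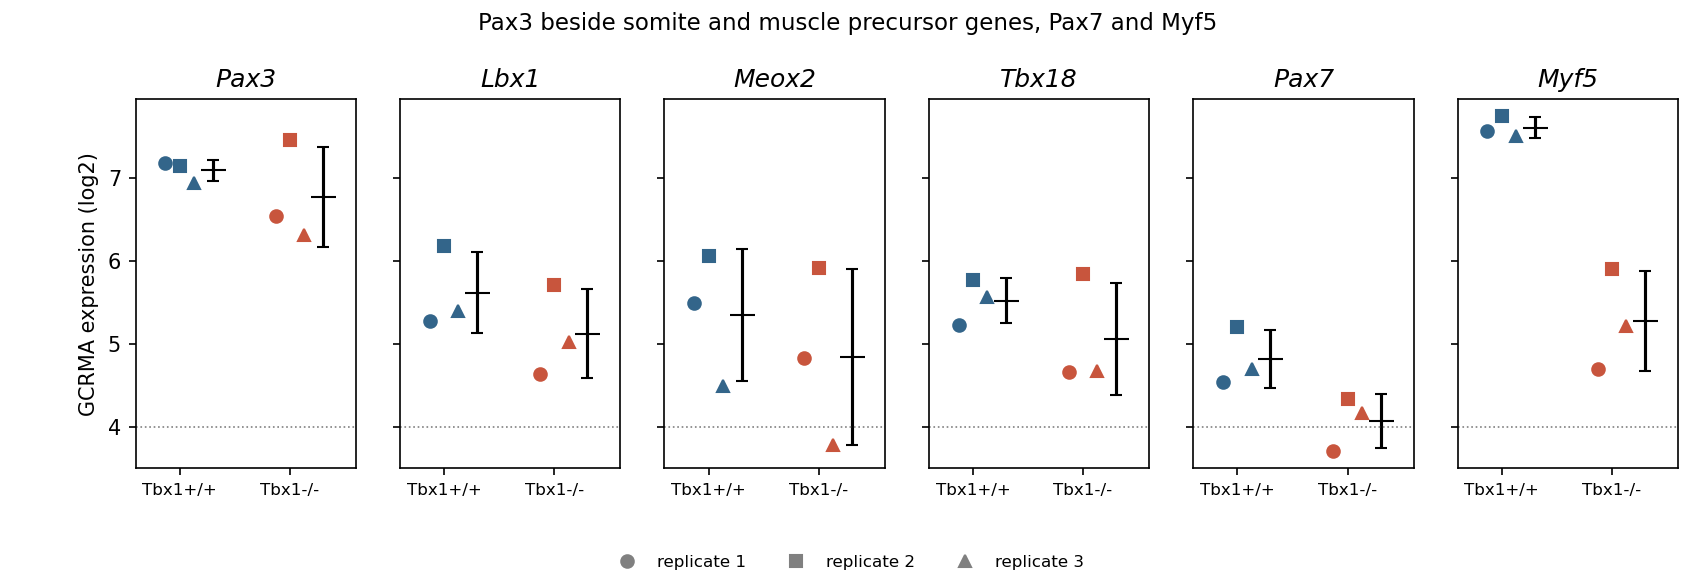
GCRMA expression (log2) of Pax3 beside Lbx1, Meox2, Tbx18, Pax7 and Myf5 on each array, wild type in blue and labelled null in red, with marker shapes for the replicate number, black bars for the mean and SD of 3 arrays and a dotted line at the filter level of 4. On the labelled-null arrays replicate 2 (squares) is highest for each of the 6 genes, and Myf5 alone is separated by over 1 between genotypes.

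Markers of the other sites where Pax3 and Pax7 are used were compared as lists. Of 8 tested markers of somites and their muscle precursors, 0 passed in limma (unadjusted, 0 had p under 0.05). Their summed linear level over 9 measured genes ran from 424 to 559 on the wild-type arrays and from 395 to 515 on the labelled-null arrays, with Uncx under 4 throughout. With the replicate block 0 passed and 3 of the 8 were lower at an unadjusted p under 0.05, against 304 of all 16073 genes. Lbx1 was among the 3, at -0.49 (adjusted p = 0.728 in limma). Without the block Lbx1 differed by -0.21 without wild-type replicate 2, by -0.25 without labelled-null replicate 1, by -0.78 without labelled-null replicate 2 and by -0.15 with array weights. Of 7 tested markers of migratory crest and glia, 0 passed in limma (unadjusted, 1 was higher at p under 0.05), with summed levels over 8 genes of 4220 to 4456 and 4355 to 5302. Of 10 tested markers of neural tube and sensory neurons, 0 passed in limma (unadjusted, 1 was lower and 2 higher at p under 0.05), with summed levels over 13 genes of 708 to 778 and 749 to 898. Stmn2, a neuronal stathmin, differed by 0.90 (SE 0.17, adjusted p = 0.340), and Olig2, Zic1 and Neurog2 were under 4 on every array. The part of such tissue in the values of Pax3 and Pax7 was not tested.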

How the data were processed

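The deposited table held log2 expression values per probe set, made by the authors with GCRMA per the submitters' processing notes (version not given in the sources used here); the log2 scale was read from the values, 1.95 to 15.11. GCRMA models background from probe sequence, then quantile-normalizes and combines probes. Of 45101 probe sets, 64 were controls and 34945 had 1 gene in the platform annotation; no symbol changed on matching 34741 of them to RefSeq gene IDs.

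Each gene was represented by its brightest probe set and kept when it exceeded 4 on at least 3 arrays (16073 genes). Genotypes were compared with limma 3.58.1 in R 4.3.3 (intensity trend, genotype alone, Benjamini-Hochberg, threshold 0.05), for genes and for 37515 probe sets. The fit was tested on simulated data. Within-array differences between members used two-sided exact permutation tests. Named genes were the members, genes fixed by name, up to 4 per list with the smallest p, and the 5 likest to each member; part of these is printed, and Ebf3, Unc45b, Xist, Mymk, Mymx, Uncx, Tcf3, Tcf4, Tcf12, Zic1, Neurog2 and Olig2 were added after their values were seen. The members and lists were chosen with earlier results of these data known. Of the lists, 2 regulators and 1 somite, 1 crest and 5 placenta markers were not analysed here. No paired arrays are named by the labels. Deviations of same-number arrays correlated at 0.261, 0.130 and 0.135 over genes tested, and those of other arrays at -0.195 to 0.065. Over all probe sets the values were 0.280, 0.0697 and 0.118 for same-number arrays and -0.193 to 0.0973 otherwise. The highest of the latter, wild-type replicate 2 with labelled-null replicate 3, exceeded the same-number value of replicate 2. Replicate numbers were therefore treated as no more than a possible pairing. No 2 arrays were identical (SD of differences within a genotype 0.247 to 0.411).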

Additional observations from a re-analysis of the deposited data

How the results depend on the processing

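Every alternative kept a negative change for Myf5, Myod1, Myog and Pax7, where tested. Myf5 ran from -2.65 to -1.98 over 15 alternatives, and its adjusted p in limma from 0.00591 to 0.461, past the threshold in 7. The number of members called lower was 0, with the one gene lost being Myf5, without the filter (adjusted p = 0.0563), with values under 4 raised to 4 (0.0571), with the mean of probe sets (0.108), without the intensity trend (0.111) and with array weights (0.0897); the cause was not tested. With 1 array left out it was 0 to 1, and 0 members were called higher under any setting. Of member probe sets, 1 was called lower with the replicate block, and 0 to 1 with 1 array left out. Adjusted p-values of Myod1 (0.162 to 1.00), Myog (0.503 to 1.00) and Pax7 (0.305 to 1.00) never passed. With the mean of probe sets Myod1 differed by -0.45 and Pax7 by -0.38, since each has a dim second set. Signs turned for Myf6 with values under 4 raised to 4 (-0.057) and over arrays left out (-0.15 to 0.16). The sign of Pax3 turned with array weights in the fit over genes (0.084). In the fit over probe sets, array weights gave -0.054 on the same, brightest Pax3 set and 0.020 on its dimmest. Over arrays left out, the other Pax3 sets, dimmer first, ran from -0.26 to 0.052 and from -0.20 to 0.13. With a filter at 5, Myf6 and Pax7 were not tested. The number of pairs of members without overlap was 8, and 8 to 11 over the alternatives. Regulators called lower ranged from 0 to 2 with 1 array left out, and were 0 with the mean of probe sets and 2 with array weights, and 1 muscle gene was called with the replicate block; the block changed no other call among the members and lists. Values near 4 limit what Myf6, Pax7 and Myog can show.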
